A study of Caenorhabditis elegans with 3 samples.

Results

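The ugt genes of the nematode Caenorhabditis elegans encode UDP-glucuronosyltransferases, and their promoters were examined for sites of the zinc finger transcription factor PQM-1. The members were all protein-coding genes of the Ensembl WBcel235 annotation whose name begins with ugt-, which gave 67 of the 19973 genes on the nuclear chromosomes. PQM-1 had been mapped by ChIP-seq, the sequencing of DNA bound by an immunoprecipitated protein. The material was whole L4 larvae of strain OP201, with the sexes not separated. These worms carried the unc-119 allele tm4063 and the transgene wgIs201, which encodes PQM-1 fused at the C-terminus to a tag of GFP and FLAG, so the tagged protein and not the native one was profiled. All 3 libraries belonged to that 1 group, with 2 technical libraries in biological replicate 1 and 1 library in replicate 2, and there was no second condition. Whole animals were used, so sites in different tissues cannot be told apart, and peaks report occupancy and not transcription.

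UDP-glucuronosyltransferases are membrane enzymes of the endoplasmic reticulum that transfer a sugar from a UDP-sugar to a lipophilic compound, which makes it soluble enough to be exported. They belong to the conjugating phase of detoxification, downstream of cytochrome P450 oxidation and beside the glutathione S-transferases, and in worms many of the sugar conjugates described are glucosides. PQM-1 is known for its part in insulin signalling opposite DAF-16 and for its tie to TGATAAG, the element named after DAF-16 that resembles the sites of GATA factors.

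Each peak comes with a summit, its point of highest enrichment, and with a signal, the authors' own measure of enrichment over a control, which ranks peaks within 1 list. The main list is the optimal one, 4739 peaks that the authors kept by a threshold on the irreproducible discovery rate, a measure of reproducibility. A place in this list does not mean that a peak is strong in each replicate. A gene had a promoter peak when an optimal summit lay between 1000 bp upstream and 200 bp downstream of its start, and offsets are given from that start with upstream negative. The lists of the pooled reads (18821 peaks), of replicate 1 (24037) and of replicate 2 (19038) also hold background peaks. The signals of the replicate lists are on scales of their own. The strongest promoter peak of each occupied ugt gene had the same signal and rank in the pooled list as in the optimal one.

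Sequences near 7 summits show the range of sites in this family. Each is the part of the 201 bases centred on the summit that lies before the gene's start and outside annotated protein-coding exons, read 5′ to 3′ on the gene's strand from the reference genome (ce11, WBcel235). Capitals mark the GATA core, which is GATAA or GATAG after an A or a T, on either strand, so that a TGATAA of the other strand is printed as TTATCA. Each TGATAAG contains a core, and neighbouring cores can overlap. The strongest site, at ugt-62 (chrIII:4540714-4540914, minus strand), carries a TGATAAG that runs into a second core. The part before the start of ugt-23 (chrX:9925174-9925247, minus strand) holds the same run of letters. Its TGATAAG is centred at −90 bp from the summit, which lies past the start and is not printed. The other TGATAAG of that window, at −7 bp from the summit, is not printed either. At ugt-22 (chrIV:13639147-13639259, plus strand) there are 3 cores and no TGATAAG. The tandem neighbours ugt-20 (chrIV:6083767-6083967, minus strand) and ugt-19 (chrIV:6080013-6080213, minus strand) are strong sites without TGATAAG. The tandem neighbours ugt-1 (chrV:10395427-10395627, plus strand) and ugt-2 (chrV:10398522-10398722, plus strand) differ, since the first holds TGATAAG and the second no core.
ugt-62: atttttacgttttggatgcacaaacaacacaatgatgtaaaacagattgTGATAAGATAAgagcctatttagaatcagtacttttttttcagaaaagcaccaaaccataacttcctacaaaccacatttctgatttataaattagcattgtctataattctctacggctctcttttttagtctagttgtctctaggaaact
ugt-23: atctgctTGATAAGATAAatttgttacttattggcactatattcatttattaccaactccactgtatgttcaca
ugt-22: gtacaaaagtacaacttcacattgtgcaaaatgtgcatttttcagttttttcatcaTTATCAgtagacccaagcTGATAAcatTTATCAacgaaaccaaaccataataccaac
ugt-20: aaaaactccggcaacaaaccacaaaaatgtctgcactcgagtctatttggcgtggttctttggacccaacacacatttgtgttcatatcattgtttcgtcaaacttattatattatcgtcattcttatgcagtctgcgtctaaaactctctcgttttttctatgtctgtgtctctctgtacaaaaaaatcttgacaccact
ugt-19: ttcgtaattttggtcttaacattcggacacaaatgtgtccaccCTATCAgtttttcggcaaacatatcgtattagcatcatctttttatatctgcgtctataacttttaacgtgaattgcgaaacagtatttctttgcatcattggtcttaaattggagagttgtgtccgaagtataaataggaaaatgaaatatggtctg
ugt-1: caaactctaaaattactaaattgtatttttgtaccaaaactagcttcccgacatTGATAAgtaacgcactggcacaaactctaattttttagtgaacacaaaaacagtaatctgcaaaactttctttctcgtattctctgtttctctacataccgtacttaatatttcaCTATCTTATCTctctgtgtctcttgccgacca
ugt-2: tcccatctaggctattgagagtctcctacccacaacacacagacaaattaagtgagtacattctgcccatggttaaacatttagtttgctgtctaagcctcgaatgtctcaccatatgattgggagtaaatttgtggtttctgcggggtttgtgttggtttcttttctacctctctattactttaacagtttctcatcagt

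PQM-1 occupied a large share of ugt promoters in the L4 larva. Of the 67 ugt genes, 30 (44.8%) had an optimal summit in the promoter, beside 12.8% of all protein-coding genes. These genes held 33 distinct peaks, because ugt-53, ugt-49 and ugt-44 each had 2, and no summit lay in the promoters of 2 ugt genes. With background peaks included, the pooled list had a summit in 46 ugt promoters (68.7%) against 35.2% of all promoters. The replicate lists gave 48 ugt promoters each (71.6%), against 38.0% of all promoters in replicate 1 and 34.8% in replicate 2.

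The members were spread unevenly over the genome, and so were the sites. Chromosome V carries 42 of the 67 genes, of which 17 (40.5%) had a promoter peak, beside 12.4% of all genes there. Chromosome IV had 7 of 12 (58.3%, beside 11.7% of all genes) and X had 3 of 4 (75%, beside 16.3%). Chromosome I had 2 of 5 (40%, beside 10.9%) and III had 1 of 3 (33.3%, beside 13.8%). The 1 ugt gene on II, ugt-58, had none, beside 12.4% of all genes there. Outside chromosome V these shares rest on few genes.

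The signal at ugt promoter peaks ran from 31.7 to 176.1 with a median of 70.5, where the median of all 2234 optimal promoter peaks was 55.1. Of the 33 peaks, 20 lay above the median of the whole optimal list (55.4). Among the 1184 strongest of its 4739 peaks were 10 (30.3%), not far above the share that this cut takes of the whole list. In bins of signal, 4 peaks had at least 100, 11 had 75 to under 100, 10 had 50 to under 75 and 8 had less.

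The strongest site of the family stood at ugt-62 on chromosome III, whose optimal peak had a signal of 176.1 at −191 bp. It had 43.4 in the replicate 1 list and 138 in the replicate 2 list, the highest replicate 2 value of any ugt promoter. Next was ugt-46 on X (peak chrX:530122-530300), with an optimal signal of 131 at 65 bp, in the 5′ untranslated region. Its order differed between replicates, with 51.7 in replicate 1, the highest there, and 75.2 in replicate 2. The window of ugt-46 held 3 TGATAAG, more than any other ugt promoter peak. At ugt-23, also on X, the signal was 104 at 26 bp, with 28.9 in replicate 1, 74.2 in replicate 2 and 2 TGATAAG.

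The tandem pair ugt-19 and ugt-20 followed closely. Their optimal signals were 100.1 at −161 bp and 97.5 at −267 bp. At ugt-19 the replicate values were 27.6 in replicate 1 and 70.6 in replicate 2, and at ugt-20 they were 33.4 and 70.2. The same range was reached at ugt-28, with an optimal signal of 99.5, 29.9 in replicate 1 and 66.2 in replicate 2. That summit lay at −542 bp, inside the last part of the neighbouring gene ugt-27, in a coding exon. The gene ugt-22, which alters how well the drug albendazole works in worms and is tied to the stress factor SKN-1, had a signal of 90.7 at −13 bp, with 27.9 in replicate 1 and 60.6 in replicate 2. The eighth, ugt-24, had 82.8 at −73 bp, with 20.3 in replicate 1, 60.6 in replicate 2 and 2 cores without TGATAAG. Its summit also lies at −143 bp from C49A9.6, a divergent gene.

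**Figure D1:**
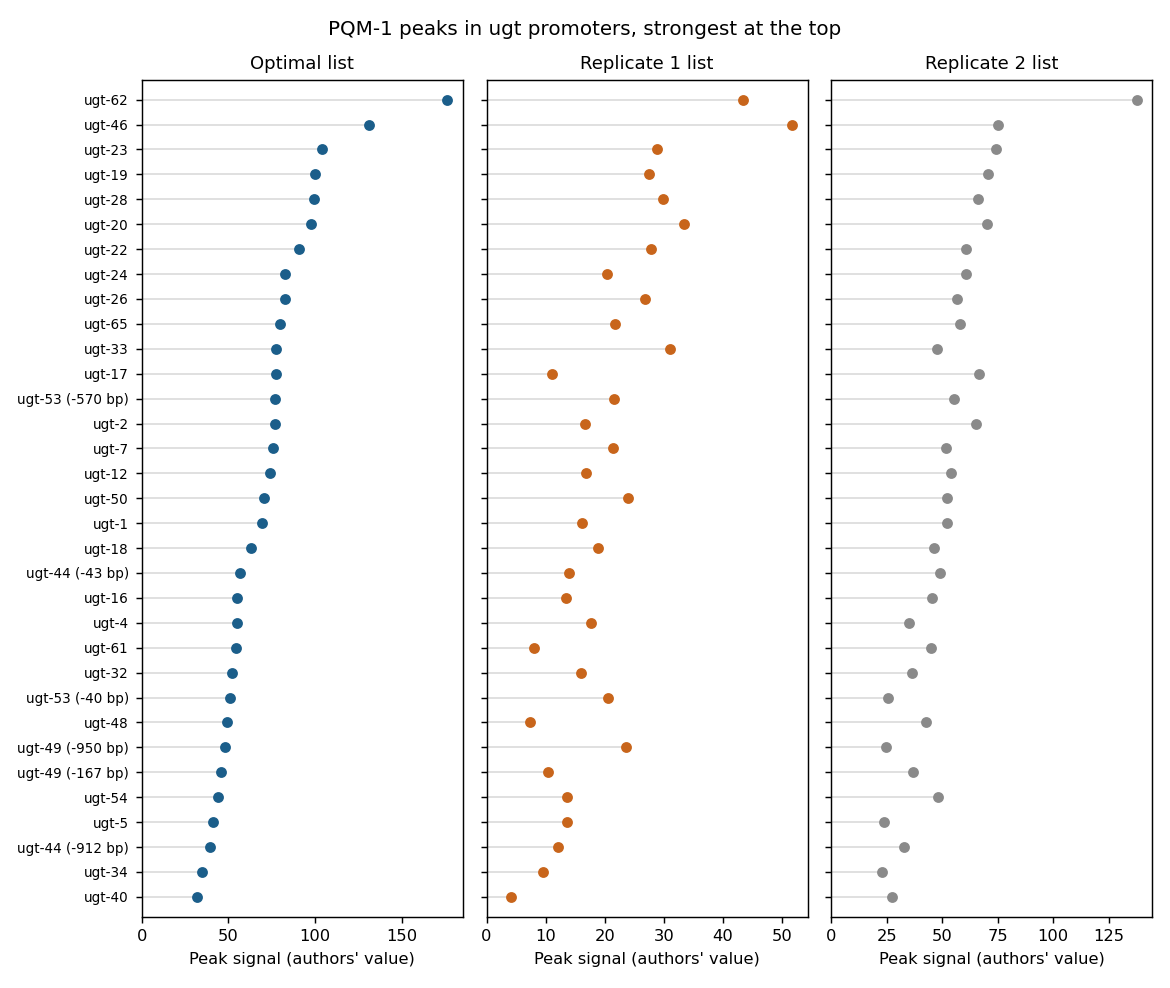
Signal of the 33 optimal PQM-1 peaks in ugt promoters, strongest at the top, in the optimal list (left) and at the strongest overlapping peak of the replicate 1 list (middle) and replicate 2 list (right). Each point is 1 peak, the x axes are the authors' signal on each list's own scale, and genes with 2 peaks carry the offset from the start. The peaks of ugt-62 and ugt-46 stand at 176.1 and 131 in the optimal list, and only ugt-46 ranks above ugt-62 in replicate 1.

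The remaining sites formed a continuous series. Between 75 and 83 were ugt-26 (82.6), ugt-65 (79.7), ugt-33 (77.6), ugt-17 (77.3), the distal peak of ugt-53 (77.0), ugt-2 (76.9) and ugt-7 (75.6). Between 50 and 75 were ugt-12 (74.2), ugt-50 (70.5), ugt-1 (69.3), ugt-18 (63.0), the proximal peak of ugt-44 (56.4), ugt-16 (55.1), ugt-4 (54.9), ugt-61 (54.4), ugt-32 (52.0) and the proximal peak of ugt-53 (50.9). Among these, ugt-16 is known as a gene induced by albendazole. The weakest were ugt-48 (49.1), the peaks of ugt-49 (47.7 at −950 bp and 45.6 at −167 bp), ugt-54 (43.9), ugt-5 (40.8), the distal peak of ugt-44 (39.6), ugt-34 (34.5) and ugt-40 (31.7).

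Each of the 33 peaks was overlapped in both replicate lists, as were 99.2% of all optimal peaks, so this support says little about ugt sites in particular. When each replicate list was limited to its 4739 strongest peaks, 29 of the 33 were still met in replicate 1 (82.7% of all optimal peaks) and 32 in replicate 2 (91.9%). Replicate 1 signals at these sites ran from 4.10 to 51.7 with a median of 18.8, and replicate 2 signals from 22.6 to 138 with a median of 51.6. The order of the sites was alike but not the same. Across the 33 peaks, which share their libraries and their selection, Spearman's rho between the replicate signals was 0.650 and Pearson's r 0.681. Without ugt-46 and ugt-62, rho was 0.578 and r 0.566. The lowest replicate 1 value was that of ugt-40, with 4.10 (rank 11330 of 24037 peaks), against 27.4 in replicate 2, where ugt-34 was lowest at 22.6. The summit of ugt-17 was also uneven, at 11.1 in replicate 1 and 66.5 in replicate 2.

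Sites lay near the start. The median offset over the 33 ugt peaks was −76 bp, with a range of −950 to 65 bp, where all promoter peaks had a median of −165 bp from the nearest start. Within 200 bp of the start were 25 ugt summits (75.8%), against 55.7% of all promoter peaks. Upstream of the start lay 29 of the 33 summits, and 5 of those were more than 500 bp away, at ugt-28, ugt-53, ugt-49, ugt-44 and ugt-40. The other 4 lay in 5′ untranslated regions, at ugt-46, ugt-23, ugt-26 and ugt-50. By annotation, 27 summits were intergenic, 1 was in a coding exon of ugt-27 and 1 in an intron of ugt-37.

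**Figure D2:**
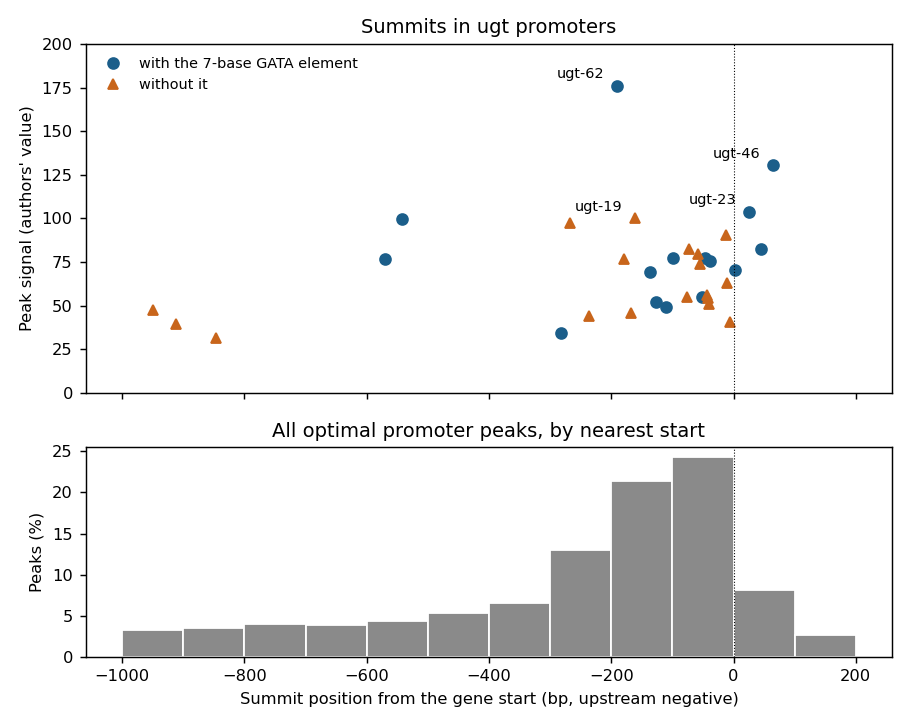
Top, signal of the 33 ugt promoter peaks (y axis, authors' value) against summit position from the start of the ugt gene (x axis, bp), as circles where the 201-base window holds the 7-base GATA element TGATAAG and triangles where it does not. Bottom, the share of optimal promoter peaks in bins of 100 bp from the nearest start, among those between 1000 bp upstream and 200 bp downstream of that start. Most ugt summits, 25 of 33, lie within 200 bp of the start, and the 3 summits beyond −800 bp lack the element.

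Some ugt sites could also belong to a neighbour. In 8 of the 33 peaks (24.2%) the summit was in the promoter of another gene too, against 17.7% of all promoter peaks. The other genes were C49A9.6 (with ugt-24), C08B6.2 (ugt-17, at −701 bp from C08B6.2), srj-49 (both peaks of ugt-53), T19H12.2 (ugt-12, at −746 bp), col-151 (ugt-1, at −304 bp), ZC443.4 (ugt-18, at −363 bp) and tut-2 (ugt-34, at −975 bp). Only the distal peak of ugt-53 was nearer to the other start, at −433 bp from the chemoreceptor gene srj-49 against −570 bp from ugt-53. The other 32 were nearest to a ugt start. Of the 88 nearest genes of another kind on either side of the ugt genes, 11 (12.5%) had a promoter summit, close to the 12.8% of all genes. Of these, 7 shared it with a ugt gene and 4 (4.55% of the 88) had one of their own.

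Many ugt genes lie in tandem clusters, rows of genes that point the same way. With starts at most 10 kb apart on the same strand there were 12 clusters with 32 genes, 7 of them pairs and none with more than 4 genes. Of the 32 clustered genes 15 (46.9%) had a promoter peak, beside 15 of the 35 others (42.9%). Neighbours on either strand with no other start between them gave 13 of 31 (41.9%), below the 44.8% of all ugt genes. Which group had the larger share thus depended on the cluster rule. The strongest promoter signal per gene had a median of 69.3 in clustered genes (31.7 to 100.1) and 77.0 in the others (43.9 to 176.1). A site at one gene of a cluster did not mean a site at all of them. In 2 clusters each gene had a promoter peak, in 8 some had, and in 2 none had. The first gene of the cluster had one in 6 of 12 clusters, and 9 of the 20 later genes had one. Among later genes that began less than 200 bp after the gene before, 3 of 8 had a promoter peak, against 6 of the other 12.

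The fully occupied clusters were the pairs ugt-20 and ugt-19 on IV and ugt-1 and ugt-2 on V. The summit of ugt-1 had a signal of 69.3 at −136 bp, with 16.2 in replicate 1, 52.0 in replicate 2 and 1 TGATAAG. That of ugt-2 had 76.9 at −179 bp, with 16.6 in replicate 1, 65.2 in replicate 2 and no core. In the row of ugt-3, ugt-6, ugt-4 and ugt-5, in the order of transcription, the last 2 were occupied. The values were 54.9 at −76 bp for ugt-4, with 17.7 in replicate 1 and 34.8 in replicate 2, and 40.8 at −6 bp for ugt-5, with 13.6 and 23.9. In the row of ugt-18, ugt-16 and ugt-15 the first 2 were. There ugt-18 had 63.0 at −11 bp, with 18.8 in replicate 1 and 46.0 in replicate 2, and ugt-16 had 55.1 at −52 bp, with 13.5 and 45.2.

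On chromosome I the row of ugt-26, ugt-27, ugt-28 and ugt-25 had sites at ugt-26 and ugt-28. The summit of ugt-26 had 82.6 at 45 bp, with 26.9 in replicate 1, 56.6 in replicate 2 and 1 TGATAAG. In the pairs, the occupied gene came first for ugt-17 and ugt-47 (77.3 at −47 bp) and for ugt-34 and ugt-35 (34.5 at −282 bp, with 9.49 in replicate 1 and 22.6 in replicate 2). It came second for ugt-43 and ugt-44 and for ugt-11 and ugt-12. At ugt-44 the summits had 56.4 at −43 bp, with 13.96 in replicate 1 and 48.8 in replicate 2, and 39.6 at −912 bp, with 12.0 and 32.8. At ugt-12 the summit had 74.2 at −54 bp, with 16.8 in replicate 1 and 53.7 in replicate 2. Of ugt-38, ugt-37 and ugt-40 only the last had one, the weak summit at −846 bp inside ugt-37. Of these clustered sites, TGATAAG was present in the windows of ugt-16, ugt-17 and ugt-34, and it was absent from those of ugt-4, ugt-5, ugt-12, ugt-18, ugt-40 and ugt-44. No gene was occupied in the row of ugt-67, ugt-8, ugt-14 and ugt-13 or in the pair of ugt-55 and ugt-56.

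**Figure D3:**
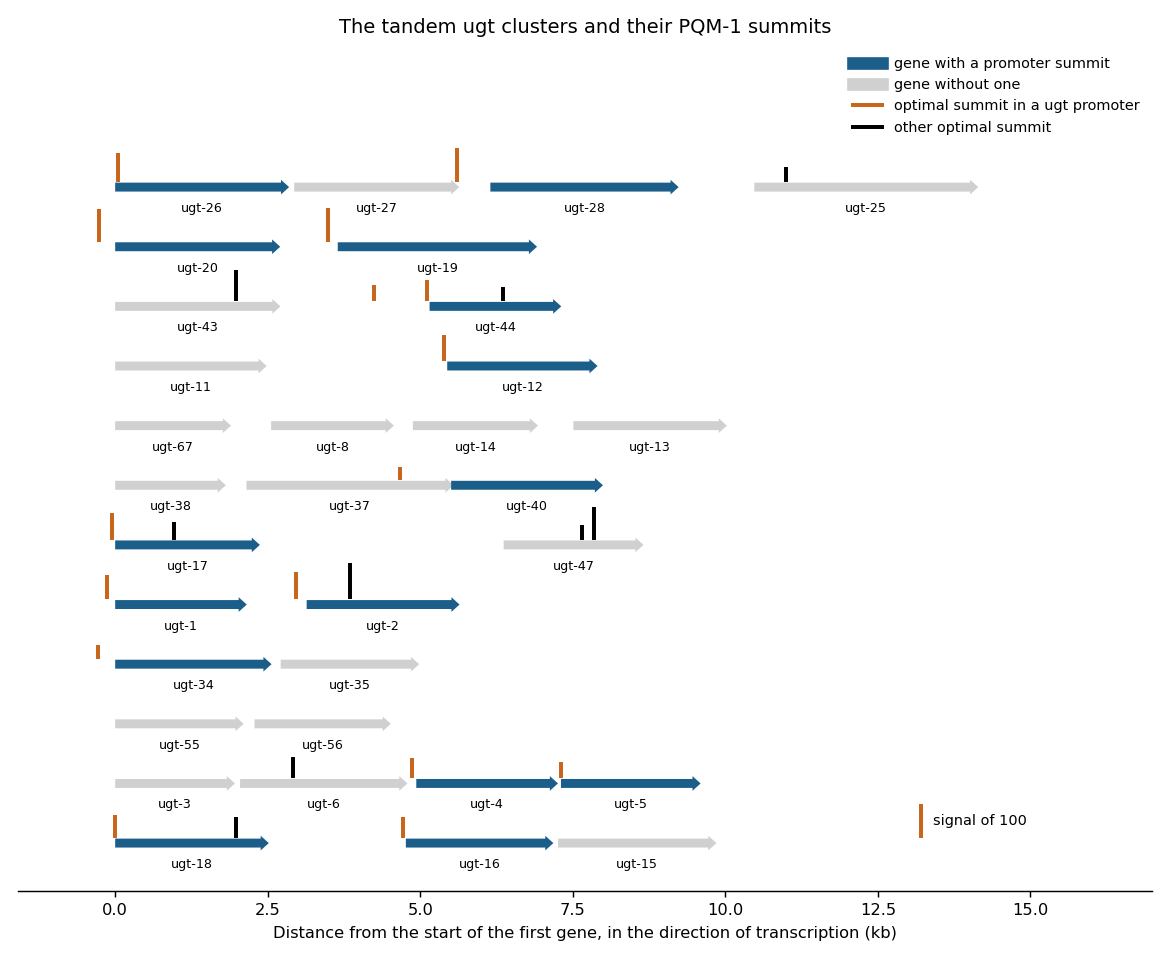
Maps of the 12 tandem ugt clusters, 1 per line, drawn from the start of the first gene in the direction of transcription (x axis, kb). Arrows are genes, dark with and pale without an optimal summit in the promoter, and vertical bars are optimal summits within 1 kb of the cluster, with height in proportion to the signal and black where the summit lies in no ugt promoter. Dark arrows are found at the first gene of 6 clusters and at 9 of 20 later genes, and several pale genes carry a bar inside the gene.

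The 37 ugt genes without a promoter peak were not uniform. Of these, 16 (43.2%) had a summit in the larger pooled list, against 25.7% of all genes without an optimal promoter summit. The pooled signals ran from 7.62 to 30.1 with a median of 20.5. All were under the lowest optimal signal of 31.5, which follows from the ranks that the 2 lists share and is no trait of ugt genes. Closest to that limit were ugt-52 (30.1 at −60 bp, with 7.78 in replicate 1 and 23.1 in replicate 2), ugt-39 (27.5), ugt-47 (27.4), ugt-58 (26.5) and ugt-43 (26.4). Just inside it were ugt-40 at 31.7 and ugt-34 at 34.5, so the boundary of the list runs through a continuous range. The other members with a pooled summit were ugt-31, ugt-45, ugt-21, ugt-29, ugt-11, ugt-9, ugt-51, ugt-37, ugt-41, ugt-6 and ugt-57, of which ugt-11 and ugt-9 share 1 peak. A further 6, namely ugt-8, ugt-38, ugt-36, ugt-3, ugt-15 and ugt-30, had a summit in a replicate list only. No list had a summit in the promoters of the last 15, which were ugt-10, ugt-13, ugt-14, ugt-25, ugt-27, ugt-35, ugt-42, ugt-55, ugt-56, ugt-59, ugt-60, ugt-63, ugt-64, ugt-66 and ugt-67.

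Lack of a promoter peak did not mean lack of a nearby site. An optimal summit lay within 5000 bp of the start in 12 of the 37. That share was not computed for all genes without a promoter peak, so the count says nothing about ugt genes in particular. For ugt-43 the nearest was at −1351 bp with a signal of 93.1, and for ugt-58 at −1104 bp with 41.9. Downstream of the start, ugt-64 had a summit in an intron at 417 bp with 82.1, ugt-25 one in an intron at 519 bp with 35.6 and ugt-6 one in an intron at 875 bp with 56.7. At ugt-47 the nearest was in a coding exon at 1286 bp with 36.7. For ugt-38 it was at −3309 bp with 65.0. In the other 5, namely ugt-27 (2673 bp), ugt-37 (2508 bp), ugt-35 (−2995 bp), ugt-3 (2922 bp) and ugt-15 (−2547 bp), the nearest summit lay in another ugt gene or in its promoter.

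Sites inside ugt genes were a second group. Beyond the promoters, 11 optimal summits lay within the bodies of 10 ugt genes, with a median signal of 56.7, beside 55.5 for all 1327 summits in gene bodies outside every promoter. The strongest were at ugt-2 (108 at 705 bp, in an intron), ugt-47 (96.4 at 1487 bp, in a coding exon), ugt-43 (90.3 at 1987 bp, in an intron) and ugt-64. The rest were at ugt-18 (58.1), ugt-6, ugt-46 (56.3), ugt-17 (45.6), ugt-47 again (36.7), ugt-25 and ugt-44 (33.4). The site inside ugt-2 was stronger than the one in its promoter, with 32.3 in replicate 1 and 78.1 in replicate 2. TGATAAG was found in 10 of the 11 windows (90.9%), against 622 of the 1327 (46.9%), and the exception was the weaker of the 2 neighbouring summits in ugt-47. Counting body and promoter, 37 ugt genes (55.2%) held an optimal summit, against 16.9% of all protein-coding genes. That count includes ugt-27 and ugt-37, whose only body summits are the promoter peaks of ugt-28 and ugt-40.

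GATA sequences were frequent under the ugt promoter summits, about as frequent as under other promoter summits. TGATAAG was present in 15 of the 33 windows of 201 bases (45.5%), against 42.7% of the windows of all 2234 promoter peaks and 7.11% of windows of that length just before the start of all genes. A GATA core was present in 29 (87.9%), against 79.9% and 42.8%. The nearest TGATAAG lay 6 to 82 bp from the summit with a median of 23 bp, and the median was 25 bp over all promoter peaks. At least 2 copies of TGATAAG were found at 4 ugt peaks (12.1%, against 8.10% of all promoter peaks), those of ugt-46, ugt-23, ugt-28 and the distal peak of ugt-53.

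Stronger ugt sites held TGATAAG more often in this small set. Of the 15 peaks with a signal of at least 75, 9 had it, and of the 18 weaker peaks 6 had it. The median signal was 77.0 with the element (34.5 to 176.1) and 55.7 without (31.7 to 100.1), and the ranges overlapped widely. Neither comparison was made over all promoter peaks, so they say nothing about ugt sites in particular. Strong peaks without the element were those of ugt-19 and ugt-20, printed above. Of the 4 windows with no GATA core, those of ugt-20 and ugt-2 had signals of 97.5 and 76.9, and those of ugt-40 and the distal peak of ugt-44 had 31.7 and 39.6. The GC content of ugt windows had a median of 32.8%, against 36.3% for all promoter peaks.

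**Figure D4:**
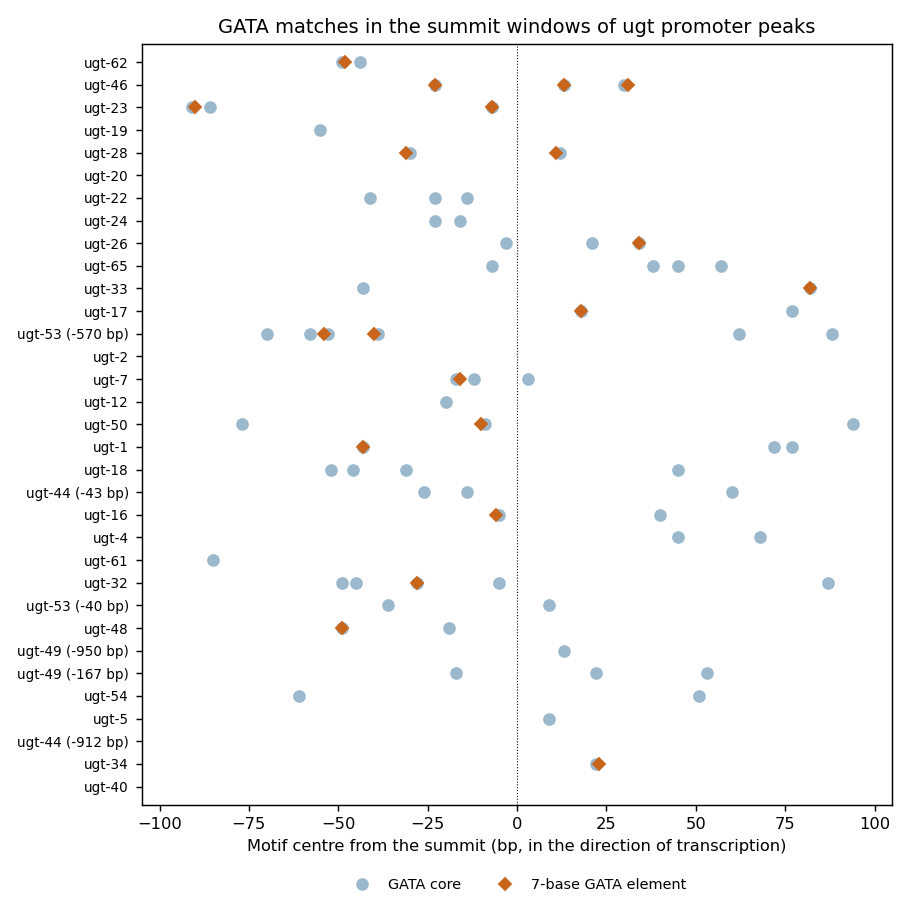
Position of each GATA core (pale circles) and each 7-base GATA element TGATAAG (dark diamonds) relative to the summit, from 100 bases before to 100 bases after it in the direction of transcription (x axis, bp), for the 33 ugt promoter peaks ordered by signal with the strongest at the top. Diamonds are found in 15 rows and circles in 29, and the rows of ugt-20, ugt-2, ugt-40 and the distal peak of ugt-44 are empty.

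GATA letters were present in occupied and in unoccupied ugt promoters. Over the whole promoter of 1201 bases, TGATAAG was present in 17 of the 30 with a peak (56.7%) and 17 of the 37 without (45.9%), against 53.2% of all promoters with a peak, 19.4% of all without and 23.7% of all. Each of the 67 ugt promoters held at least 1 core, as did 93.3% of all promoters. GTAAACA, the binding element of DAF-16, was present in 10 of the 30 (33.3%) and 4 of the 37 (10.8%), against 19.8% of all promoters with a peak, 14.4% of all without and 15.1% of all. Under the summits themselves it was present in 1 of 33 windows (3.03%, against 4.92% of all promoter peaks), so these matches mostly lie elsewhere in the promoter. GAGAGA was in 6 of the 33 windows (18.2%, against 25% of all promoter peaks), and the E-box CACGTG in 1 of them (3.03%, against 5.91%). The motifs were searched on both strands.

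The likeness of the genes was set beside their sites. Coding sequences were 1449 to 1674 bases long. Pairs within a tandem cluster had a median coding identity of 66.6% (31 pairs), and all other pairs 60.9% (2180 pairs). The most alike pairs were ugt-38 and ugt-39 (89.4%), ugt-41 and ugt-42 (84.9%), ugt-28 and ugt-29 (84.4%) and ugt-19 and ugt-20 (81.8%). Of these, neither gene was occupied in the first 2 pairs, ugt-28 but not ugt-29 was in the next, and both were in the last. The summit windows of ugt-19 and ugt-20 were also the most alike of all pairs of ugt windows, with a local alignment score of 32 where the median pair scored 10. How reads from such copies were assigned is not stated in the files, and its part in these values was not tested. The share of 36-base words of the promoter that occur again in the genome was 0% in the median of both groups. It reached 20.7% in occupied promoters, at ugt-48, and 42.8% in unoccupied ones, at ugt-64, and its part in the lack of a peak there was not tested.

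Other families of xenobiotic metabolism were also often occupied. Short-chain dehydrogenases (dhs) had a promoter peak at 14 of 30 genes (46.7%), ATP-driven export pumps (pgp and mrp) at 8 of 22 (36.4%), cytochrome P450 genes (cyp) at 26 of 74 (35.1%) and glutathione S-transferases (gst) at 13 of 44 (29.5%). The median signal was 70.5 at ugt peaks, 74.5 at pgp and mrp peaks, 52.4 at gst peaks, 47.3 at dhs peaks and 45.3 at cyp peaks. TGATAAG was found at 45.5% of ugt peaks, 50% of pgp and mrp peaks, 35.7% of dhs peaks, 30.8% of cyp peaks and 28.6% of gst peaks. The strongest site of each family was at ugt-62 (176.1), pgp-1 (202), gst-13 (115), cyp-13A8 (112) and dhs-3 (100.2). The second was at ugt-46 (131), gst-42 (106), cyp-33E2 (107), mrp-5 (101) and dhs-14 (67.8). These shares rest on few genes in each family and were compared without a test.

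**Figure D5:**
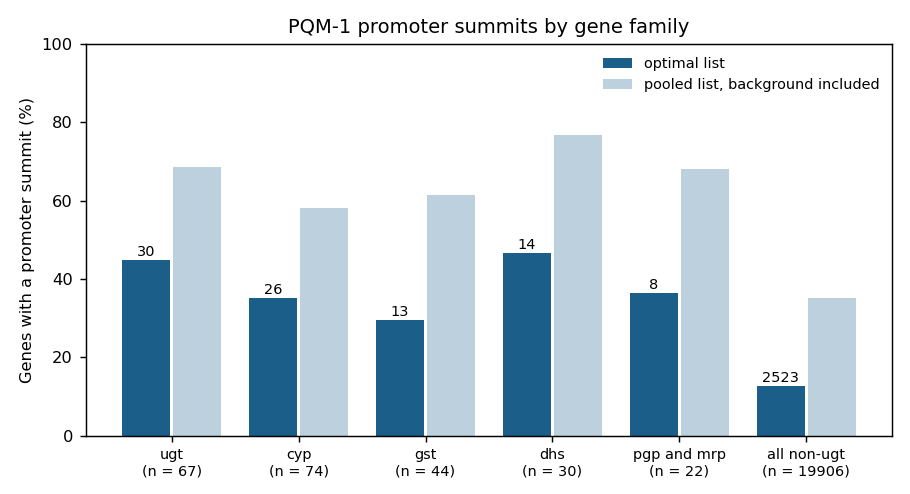
Share of genes with a PQM-1 summit in the promoter (y axis, %) for ugt genes, 4 other families of xenobiotic metabolism and all protein-coding genes outside the ugt family, in the optimal list (dark bars, number of genes above) and in the pooled list with background peaks (pale bars). The dark bar of ugt genes stands at 44.8%, that of dhs genes at 46.7% and that of all genes outside the ugt family at 12.7%.

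Of 7 sqv genes, which make and transport nucleotide sugars and build glycosaminoglycan chains, 1 had a promoter peak, a share near the 12.8% of all genes. It was sqv-3, a galactosyltransferase, with 78.4 at −495 bp. The UDP-glucose dehydrogenase gene sqv-4, whose product makes UDP-glucuronate, had none. Regulators of xenobiotic and stress responses had promoter peaks at 7 of 15 genes, beside 12.8% of all genes, in a list chosen with earlier results of these data known. The strongest were at nhr-8, a nuclear receptor of xenobiotic resistance (145 at −2 bp), and elt-2, the GATA factor of the intestine (136 at −429 bp). The others were wdr-23, a repressor of SKN-1 (71.6), nhr-49, a nuclear receptor of lipid metabolism (66.3), the bZIP gene cebp-1 (53.8), and the nuclear receptors nhr-176 (40.0) and nhr-86 (38.1). No optimal summit lay in the promoters, taken at the outermost start, of skn-1, daf-16, pqm-1, ahr-1, aha-1, hif-1, mdt-15 and nhr-114. Any other transcript starts of these genes were not examined one by one.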

How the data were processed

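PQM-1 ChIP-seq peak lists of build ce11 were used: an optimal list, a pooled list and a list per biological replicate. Per the readme texts, the authors made the last 3 with background peaks as input for the irreproducible discovery rate, against a control alignment. The signal of each peak and its −log10 q-value are as deposited. The q-value is capped, so signal was used, within 1 list at a time. For the caller, the aligner and the optimal-list threshold, names and versions were not given in the sources used here. No control library was analysed here. The lists hold no read counts, so depth is unknown.

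Peaks lay within the chromosomes of WBcel235, the same assembly, and genes were taken from Ensembl release 115. The outermost start of each gene was used, and 55 of 67 members had identical ends in RefSeq. The rule for naming ugt genes was every gene with an optimal promoter summit, with replicate values for the 8 strongest and for cluster members (for ugt-17 and ugt-40 these stand with the replicate support). Members and lists were chosen with earlier results of these data known. With 1 group and 2 replicates no test was made, and shares are set beside those of all genes or peaks. Coding sequences were aligned with Biopython 1.88. Promoter assignment and motif search were tested on simulated data.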

Additional observations from a re-analysis of the deposited data

How the results depend on the processing

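The number of ugt genes with a promoter peak stayed within 1.5 times of 30 under each alternative run. It was 20 in the stronger 50% of the optimal peaks, 42 with 2 times as many peaks from the pooled list, and 28 to 32 under other promoter sizes, gene starts and peak positions. From the strongest 4739 peaks of 1 replicate, so without the other, it ranged from 29 to 31. The share of all genes, 12.8%, was 6.34% in the stronger 50%, 23.9% with 2 times as many peaks, 13.7% by any overlap, 9.64% with a promoter of 500 bp upstream and 100 bp downstream, 16.8% with 2000 bp upstream, 14.2% with the start of any transcript and 10.7% by nearest start only. It was 12.7% without either replicate. The median ugt signal, 1.28 times that of all promoter peaks in the optimal list, was 78.6 in the stronger 50% (1.01 times, near that of all promoter peaks) and 50.9 (1.58 times) with 2 times as many peaks. It ranged from 19.6 to 48.8 without 1 replicate, on each list's own scale, which is 1.13 to 1.24 times the median of all promoter peaks there. TGATAAG shares ranged from 43.8% to 45.7% without 1 replicate and were 36.4% within 50 bases of the summit. Other cluster rules gave 26 to 32 clustered genes, of which 41.9% to 46.9% had a promoter peak. A replicate summit within 100 bases was found in both lists for 31 of the 33 peaks, beside 94% of all optimal peaks.

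In 2 alternatives chosen after seeing the data, each tandem cluster counted once gave 25 occupied of 47 loci (53.2%), and leaving out promoters with over 10% repeated words gave 28 of 59 (47.5%). A cluster counted as occupied when any of its genes had a promoter peak, so the 12.8% of all single genes is no match for the 53.2%. No such share was computed for all genes. No paired analysis was possible because there is 1 group. Read depth, the control and the peak calling itself could not be varied, and 2 replicates give no error for a single site.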
